A study of Homo sapiens with 6 samples.

Results

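The isoform landscape of wild-type HBEC3kt cells was described from 3 long-read cDNA libraries. A gene, or a locus without a gene ID, was kept when it had 10 or more reads in each of the 3 libraries, which left 6242 of the 24220 IDs in the deposited table (25.8%). Of the kept IDs, 5393 were Ensembl gene IDs and 849 were genomic positions without an Ensembl gene ID. At the threshold, 278 kept IDs had exactly 10 reads in their lowest library, and 305 IDs just outside it had 9. HBEC3kt is a line of human bronchial epithelial cells immortalised with introduced CDK4 and TERT. The series also holds 3 libraries of cells with the S34F mutation of the splicing factor U2AF1, which were not analysed here. Replicate 1 came from the isolate named WT1, and replicates 2 and 3 both came from the isolate named WT2. In the titles replicate 3 is B2 and the other two are B1, marks whose meaning was not found in the labels. Since all 3 libraries are 1 genotype and share isolates, values are given per library and as mean ± SD (n = 3), no groups were compared, and the SD may be partly technical.

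Most human genes are transcribed into precursor RNAs whose introns are removed by the spliceosome, and different choices of exons, splice sites, start sites and poly(A) sites yield several isoforms from 1 gene. A nanopore read follows a cDNA molecule along its length, so that its exon chain can be read directly, whereas short reads cover only parts of it. Basal cells of the bronchial epithelium rest on the basement membrane, which they hold through laminin and integrin complexes, and carry a keratin network in their cytoplasm.

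The libraries held 1720292, 1286512 and 1584167 assigned reads, of which 96.3%, 96.4% and 91.0% fell on the kept IDs. Replicate 3 stood apart from the other two. Across kept genes, log2 counts per 1000000 assigned reads (CPM) correlated at r = 0.961 between replicates 1 and 2, at 0.818 between replicates 1 and 3 and at 0.847 between replicates 2 and 3, as a description over genes, which are not independent. More than 2-fold differences in CPM were seen for 374 genes between replicates 1 and 2 (5.99%), for 1908 genes between replicates 1 and 3 (30.6%) and for 1746 genes between replicates 2 and 3 (28.0%). The difference moved with transcript length. Ensembl genes whose leading isoform was under 500 bases had a median log2 difference of replicate 3 minus replicate 1 of -0.63, and those of 2500 bases or more a median of 0.69. The same medians for replicate 2 minus replicate 1 were 0.25 and -0.03. Replicates 2 and 3 are from the same isolate, and replicate 3 is the only library marked B2, so that this mark and the library cannot be told apart.

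Genes that mark basal airway cells were read in every library. S100A2, a calcium-binding protein of basal epithelia, had 11534, 5923 and 5126 reads. LAMB3, the beta chain of laminin-332 in the basement membrane, had 3326, 2880 and 3530 reads, and KRT5, the keratin that defines basal cells, had 701, 341 and 892. All 3 markers were therefore read in every library, KRT5 at the lowest level (412 ± 149 CPM against 2133 ± 173 for LAMB3 and 4848 ± 1747 for S100A2, not divided by length). Of 14 basal genes, 12 were kept, among them KRT14, the partner of KRT5 (5732, 2457 and 1927 reads), and TP63, the transcription factor of basal cells (26, 26 and 40 reads). NGFR was listed at 0 and DST had at most 5 reads in a library. The 14 genes held 1.41%, 1.09% and 1.18% of all reads.

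Defining markers of secretory, ciliated, neuroendocrine, ionocyte, alveolar, endothelial and blood cells were at or near 0, while keratins of luminal and squamous cells were read. Of 7 secretory genes, LCN2 was read (11, 19 and 7 reads) and the secretoglobins and mucins on the list were listed at 0. Of 6 ciliated-cell genes, DNAH5 had 1 read in replicate 3 and the other 5 were listed at 0. The 4 neuroendocrine, 3 ionocyte and 4 endothelial genes were all listed at 0, the 4 alveolar genes were listed at 0 apart from AGER with at most 2 reads, and CD14 was the only one of 6 blood-cell genes with reads (1, 6 and 7). Of 7 mesenchymal genes, the intermediate filament gene VIM was kept (219, 237 and 283 reads) and the collagens and the rest, 6 genes, were listed at 0. Among squamous genes, KRT6A (818, 614 and 1510 reads), KRT6B and KRT16 were kept, and KRT13, KRT4, IVL and SPRR3 were listed at 0. Luminal keratins were well read, with KRT19 at 8013, 3616 and 1946 reads, KRT18 at 4585, 2133 and 1659 and KRT8 at 527, 260 and 257. Of the other genes among the 5 luminal or simple epithelial ones, CDH1 had 87, 44 and 1623 reads. EPCAM had 14, 1 and 15 and was not kept. A 0 in this table can also reflect how the isoform set was built or how gene IDs were given. The intronless genes PCBP1 and HNRNPA0 were listed at 0 as well, and so were EEF1G, PSMA1, PSMB3 and NDUFA13. For PSMB3, 1580, 1440 and 736 reads that match the gene stood under another ID, by the check described next. The zeros of the markers above are therefore no proof of absence.

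The deposited gene IDs were checked against the exon and intron lengths of GENCODE 29, a check chosen after the values were seen. An isoform matched a gene when any internal exon with its flanking introns did. Internal exons without a match were passed over, and a match shared by genes counted for the gene named. Of the reads at kept Ensembl genes, 84.4 ± 0.740% lay on isoforms that matched the gene named. Another 1.38 ± 0.0402% also had exons matching only another gene, 1.15 ± 0.121% matched another gene only, and 3.14 ± 0.0705% matched none. By transcript ID, 319 of 12486 annotated isoforms, in 128 genes, belonged in GENCODE 29 to another gene than the ID named. The remaining 9.89 ± 0.516% were on isoforms of fewer than 3 exons, which cannot be matched this way. Among 5393 Ensembl genes, 51 had over 50% of their reads on isoforms of another gene. The most read of them bears the ID of JUP, the junction protein plakoglobin. Of its 8675, 6536 and 2433 reads, 8556, 6458 and 2351 matched KRT17, a keratin of basal cells, and its leading isoform carries the transcript ID of KRT17. Counted to the gene they match, these reads put KRT17 at 8628, 6499 and 2373 reads (3855 ± 2041 CPM) and left JUP with 119, 78 and 82. The ID of PCBP2, an RNA-binding protein, likewise held isoforms of PRR13 (298, 252 and 270 of 471, 404 and 857 reads). The ID of LRRD1 (1160, 1381 and 3558 reads) matched CYP51A1, an enzyme of cholesterol synthesis, in every read. These genes are called below by the ID in the table with the matching gene beside it. Keratins such as KRT6A, KRT6B, KRT14, KRT16 and KRT17 have near-identical copies, so how reads were split among them is uncertain.

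The 25 most read IDs held 18.3%, 18.1% and 11.2% of all reads (15.9 ± 4.02%). Of the 25, 3 were loci without an Ensembl gene ID. The highest was MT-CO2, a mitochondrially encoded subunit of cytochrome c oxidase (chrM:7586-8269 in hg19), with 32773, 22169 and 21159 reads (16546 ± 2908 CPM). Of 15 mitochondrially encoded genes on the list, only 2, MT-CO2 and MT-ATP6, had reads. The others, MT-CO1 and MT-CO3 among them, were listed at 0, so levels cannot be compared among mitochondrial genes here. PFN1, the actin-binding profilin (chr17:4848948-4852703), followed with 19402, 17187 and 15549 reads, and was within 2-fold between libraries. RPL35, a protein of the large ribosomal subunit, had 23405, 17733 and 5376 reads, so that replicate 3 was below the other two. ACTB, cytoplasmic beta-actin, had 21428, 8960 and 8236 reads, and there it was replicate 1 that stood above. ANXA2, a calcium-dependent membrane-binding protein, had 14829, 8598 and 9419 reads, and S100A11, a calcium-binding protein, had 11677, 13032 and 7195. Replicate 3 was the lowest library in CPM for 21 of the 25 and the highest for 3, which were LRRC75A-AS1 (6745, 7281 and 15481 reads), a snoRNA host gene, the histone H3.3 gene H3F3B (6905, 8617 and 11492) and SET (3572, 4175 and 9647), a histone chaperone. Only 12 of the 25 were among the 25 most read of every library. CDK4, the cyclin-dependent kinase introduced to immortalise the line, had 9078, 4483 and 6376 reads, and reads of an introduced copy and of the cell's own gene cannot be told apart in this table.

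**Figure D1:**
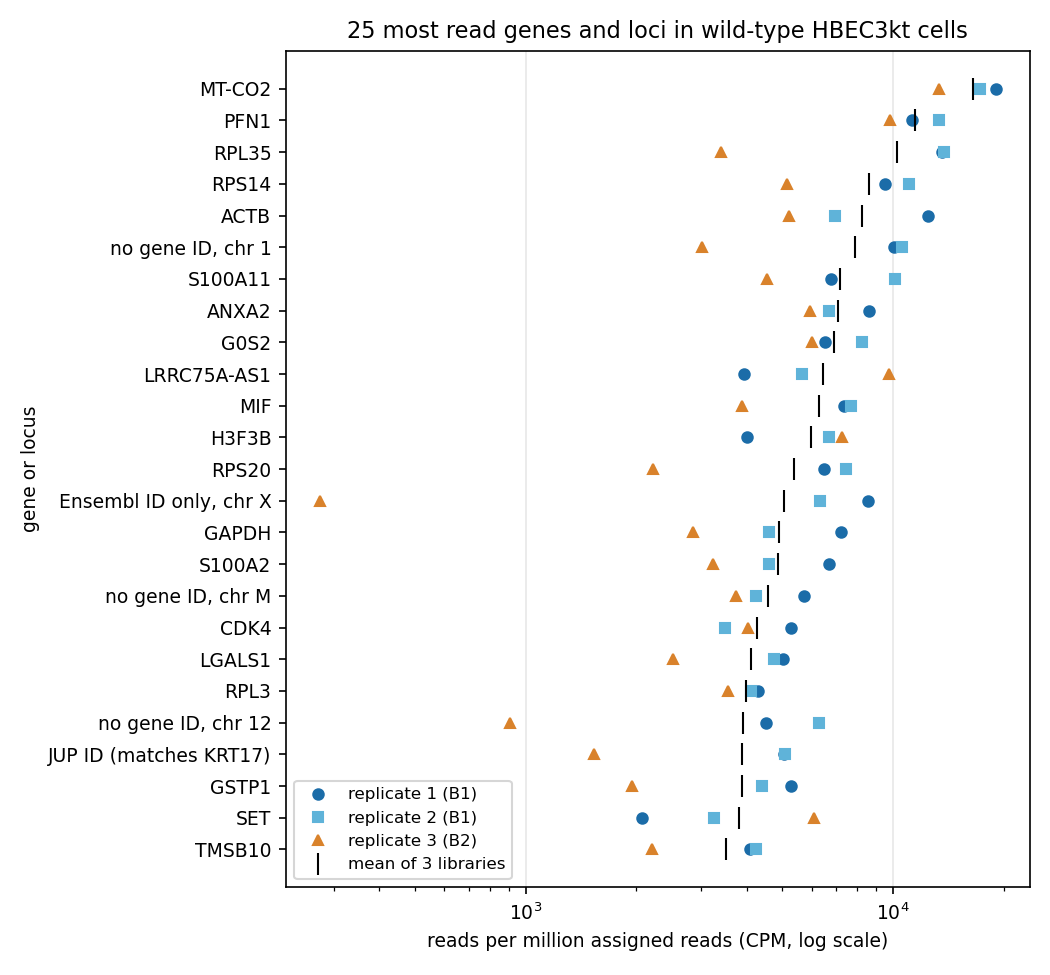
CPM of the 25 most read genes and loci on a log axis, with a marker for each wild-type library and a tick at the mean of 3 libraries. MT-CO2 has the highest mean at 16546 CPM, and the triangles of replicate 3 lie lowest in 21 of 25 rows; the JUP row holds reads that match KRT17.

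A long read counts 1 cDNA copy whatever its length, so these levels are not divided by length. Ranked instead by CPM per 1000 bases of the isoforms read, 20 of the 25 stayed in the set, and HIST1H4C, a histone H4 gene, UQCRQ, a subunit of respiratory complex III, the metallothionein MT2A, RPL18AP3 and the locus at chr19:13054904-13055301 came in. Of the 25 most read, 21 had a spliced leading isoform and 18 an annotated one. Their median leading isoform was 865 bases long, against 1662 bases over all kept Ensembl genes.

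Gene groups differed in how their reads were spread over isoforms. The 81 ribosomal protein genes on the list held 10.6%, 11.5% and 6.56% of all reads. In the 80 kept, the leading isoforms had a median share of 50.1 ± 2.75% of the gene's reads. Over all kept Ensembl genes that median was 59.7 ± 1.22%. Nuclear genes of oxidative phosphorylation, of which 39 of 40 were kept, had short leading isoforms (median 670 bases) with a median share of 64.2 ± 2.46%, as in NDUFB2, a subunit of complex I, where 88.1%, 89.4% and 90.02% of reads lay on a single 4-exon form. The 29 kept proteasome genes had a median of 64.5 ± 1.46%, led by the catalytic subunit gene PSMB6 at 91.4%, 92.3% and 92.4%. Genes of MHC class I presentation reached the highest median among lists with at least 5 kept members (80.5 ± 4.75%, 9 genes), with B2M, the light chain of MHC class I, at 82.2%, 83.9% and 89.5%, although HLA-C, which has near-identical relatives, was at 36.9%, 29.1% and 32.4%. The 12 basal genes, with KRT17 under its own ID alone, had the lowest median, 20.8 ± 3.17%. Next came 31.1 ± 5.005% in the 6 kept genes of a list of epithelial splice switches and splicing regulators. These were CD44, ESRP1, RBFOX2, ITGA6, TP63 and PKM, of which ITGA6 and TP63 are also basal genes here and PKM a glycolysis gene. The median was 36.2 ± 2.60% in 29 SR and hnRNP genes, which encode RNA-binding regulators of splicing. The leading isoforms of the basal genes had a median of 2895 bases and 12.5 exons.

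Metabolic and cytoskeletal genes lay between these ends. The 16 glycolysis genes on the list held 2.33%, 1.42% and 1.22% of all reads, and the 14 kept had a median leading share of 41.0 ± 3.86%. TPI1, triosephosphate isomerase, had 8608, 3664 and 3492 reads, and its leading form held 45.8%, 45.3% and 47.6%. ENO1, enolase, had 5080, 2106 and 3179 reads over 62 isoforms. Replicate 1 had the largest share of glycolysis reads of the 3 libraries. All 27 actin and tubulin cytoskeleton genes were kept and held 4.09%, 3.49% and 2.76% of reads, with a median leading share of 49.6 ± 2.08%. Next to PFN1 and ACTB, the most read of them was the thymosin gene TMSB10 (7001, 5436 and 3499 reads), which encodes an actin-sequestering peptide and was led by a 3-exon form at 65.0%, 66.9% and 75.5%. Of 26 annexin, galectin and S100 genes 17 were kept under their own symbols, and the 26 together held 3.51%, 3.35% and 2.19% of reads. The galectin gene LGALS1 had 8645, 6089 and 3990 reads, and its 2 leading forms, which have the same introns and other ends, held 32.9%, 33.9% and 36.3% and 31.8%, 33.0% and 35.4%.

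Stress, growth and inflammatory genes took small shares of the reads. The 22 chaperone genes on the list, of which 20 were kept, held 0.416%, 0.315% and 0.652%. Their most read member HSPA5, the chaperone of the endoplasmic reticulum, had 1737, 661 and 2500 reads. In HSPA5 the leading and the second isoform differ by a kept intron, the second at 5.93%, 11.5% and 7.48% of reads, beside 56.1%, 43.0% and 60.8% for the leading form. Of 24 proliferation genes 19 were kept, with CCNB1, the mitotic cyclin B1, at 960, 298 and 698 reads and 74.8%, 69.1% and 76.1% on its leading 9-exon form. Replicate 1 was thus the highest library for CCNB1 and replicate 2 the lowest. Of 16 inflammatory genes 10 were kept, led by IL1B, interleukin 1 beta, with 579, 386 and 598 reads, and NFKBIA, the inhibitor of NF-kB, with 532, 224 and 416. IL6, IL33, CCL2 and TNF were listed at 0. The 14 snoRNA host genes on the list were all kept and held 0.127%, 0.219% and 0.150% of reads, with a median leading share of 47.1 ± 2.17%. Translation factors held near-equal shares in the 3 libraries (1.38%, 1.47% and 1.48%), with EEF1A1, the elongation factor that brings aminoacyl-tRNA to the ribosome, at 4425, 4005 and 6771 reads.

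Across the kept IDs, a gene had 5.33, 4.80 and 5.07 isoforms with 3 or more reads (5.06 ± 0.267), with a median of 3 in every library. A single such isoform was seen in 23.95 ± 1.47% of kept IDs, and 10 or more in 12.9 ± 1.05%. Loci without an Ensembl gene ID had 1.36 ± 0.0196 isoforms on average and Ensembl genes 5.65 ± 0.307. The number was higher in genes with more reads, from 1.87 ± 0.140 in 1650 genes with a mean of 10 to 30 reads to 19.7 ± 0.611 in 248 genes with 1000 or more. To compare genes at equal depth, the expected number of isoforms in 50 reads was computed for the 2561 genes that had 50 reads in every library. It was a median of 6.28 ± 0.147, and 6.70 ± 0.0962 in the Ensembl genes among them. At this equal depth the median was 4.84 in genes with a mean of 30 to 100 reads and 7.84 in genes with 1000 or more. The first value rests on the 441 of 2348 such genes that had 50 reads in every library, the second on 247 of 248. Basal genes had 18.8 expected isoforms in 50 reads (9 genes), ribosomal protein genes 8.44 and oxidative phosphorylation genes 5.18.

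Among the 1499 Ensembl genes with 100 or more reads in every library, ANXA2 had the most isoforms, with 101 that had 3 or more reads in each. It was followed by GAPDH, the glycolytic enzyme, with 78 and by UPP1, uridine phosphorylase, with 77. RACK1, a scaffold protein of the ribosome, had 68. FDPS, an enzyme of isoprenoid synthesis, KRT19 and S100A2 had 63 each, and LAMB3 had 62. The leading isoform of ANXA2, an annotated form of 13 exons, held 17.2%, 19.5% and 30.7% of its reads, and 71.7% of ANXA2 reads on average lay on unannotated isoforms. In UPP1 the corresponding leading share was 10.3%, 8.98% and 8.03%, and 97.4% of reads were unannotated.

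The leading isoform of a gene held a median of 65.0%, 63.6% and 65.6% of its reads (64.7 ± 0.997%). In 25.1%, 25.5% and 26.3% of kept IDs it held 90% or more (25.6 ± 0.610%). The share was highest in the least read genes, at 76.2 ± 1.42% for 10 to 30 reads, and 58.6 ± 2.16% for 1000 or more reads. In Ensembl genes alone these values were 67.5 ± 1.48% and 55.3 ± 2.73%. The same isoform led in all 3 libraries in 81.4% of kept IDs, and in 4276 of 5393 Ensembl genes (79.3%). The 1117 Ensembl genes whose leading isoform differed between libraries had a median leading share of 40.4%, against 67.2% in those where it stayed the same.

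At the low end stood LAMB3, whose summed leading isoform, an unannotated form of 21 exons and 3898 bases, held 3.37%, 3.16% and 5.18% of reads. Its 95% Wilson intervals were 2.81 to 4.04%, 2.58 to 3.86% and 4.50 to 5.97%; such intervals cover counting error alone, because reads that are PCR copies of 1 molecule are counted separately. The annotated form of 23 exons was next in LAMB3, with 3.52%, 3.54% and 4.70%. FN1, fibronectin of the extracellular matrix, was led by an annotated form of 46 exons and 8025 bases, with 4.96%, 4.43% and 4.88% of reads over 52 isoforms. Also among the lowest were LRRC75A-AS1 (6.39%, 5.82% and 4.33%), the DNA repair gene SMUG1 (6.67%, 8.33% and 8.76%), the secreted epidermal protein gene DMKN, UPP1 and ARL6IP4.

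At the high end, B4GALT1, a galactosyltransferase, had a single annotated isoform of 6 exons and 4024 bases for all of its 4509, 4593 and 2312 reads (lower 95% Wilson bounds of 99.9%, 99.9% and 99.8%). ADAM17, a membrane protease, PHKG1 and CDK3 had a single isoform too, in each case an unannotated one. The isoform under the ID of CDK3 also shares its exons with the readthrough gene TEN1-CDK3. SDC4, a cell-surface proteoglycan, had 98.7%, 100% and 100% on a 5-exon form, while its reads were 307, 224 and 4271, so that replicate 3 stood far above the other two. IQGAP3 and DLG5 were at 98% or more in every library.

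The isoform that leads the reads summed over libraries was followed from library to library, and another form can lead in a single library. The 8 widest ranges of its share were in THRAP3, CTTN, SESN2, PCBP2 (with PRR13), YWHAE, RPS15A, C6orf62 and PYGL. These genes were chosen for that range, and in each of them replicate 3 was at an end of the range. In THRAP3, a splicing-associated protein gene, an unannotated form of 4 exons at the 3′ end of the gene (chr1:36761575-36770958) held 25.6%, 31.4% and 92.8% of reads, with intervals of 21.5 to 30.2%, 25.9 to 37.5% and 92.1 to 93.5%. The gene had 386, 242 and 5031 reads, and the internal exons of this form matched no gene of GENCODE 29. An unannotated form of 11 exons held 53.4%, 47.9% and 4.13%, and so led in replicates 1 and 2. In CTTN, an actin-binding protein gene, a 9-exon form held 53.6%, 37.4% and 86.5%. YWHAE, a 14-3-3 protein gene, went the other way: its annotated 6-exon form held 54.1%, 41.6% and 16.9%, and an unannotated 5-exon form of it held 5.52%, 9.85% and 22.7%. In RPS15A the annotated 475-base form held 62.0%, 44.9% and 27.1%, while a 1894-base form of 3 exons held 6.93%, 13.7% and 53.2%, and the gene's CPM differed little between libraries (522 ± 19.4). Under the ID of PCBP2, a form of 8 exons from PCBP2 held 5.10%, 4.70% and 47.0%. The 2 leading forms of THRAP3 were 2699 and 2814 bases long and those of YWHAE 1700 and 1732, whereas those of RPS15A were 475 and 1894.

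**Figure D2:**
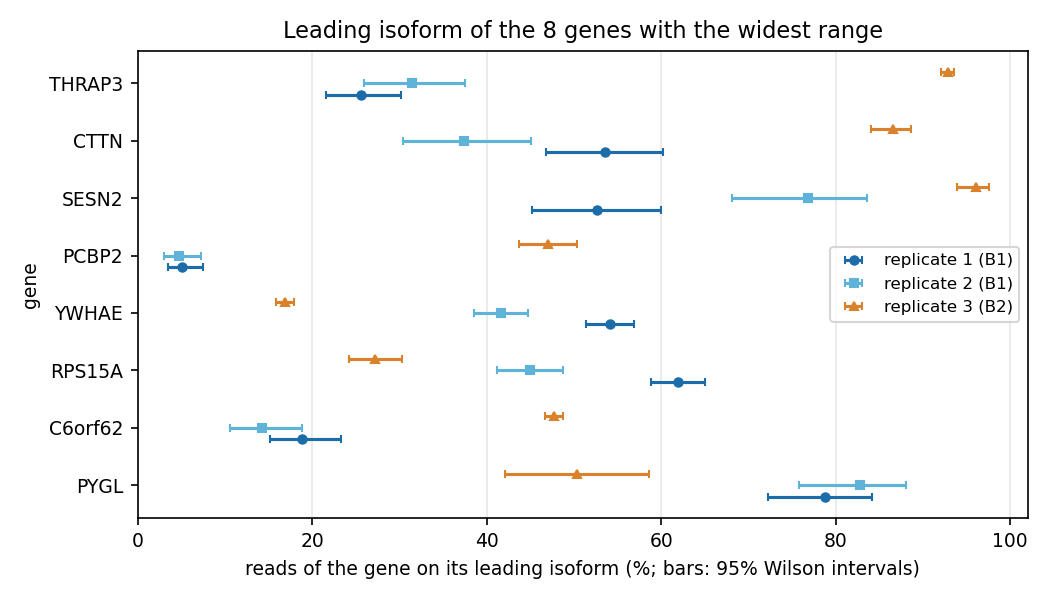
Share of a gene's reads on the isoform that leads the reads summed over libraries, with 95% Wilson intervals for each library. The 8 well-read genes with the widest range are shown. The markers of THRAP3 run from 25.6% to 92.8% and those of YWHAE from 54.1% to 16.9%, with replicate 3 at an end of the range in each gene; the PCBP2 row also holds reads that match PRR13.

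How the most read isoform and the next one differed was classified in the 4850 Ensembl genes with a second isoform. The most frequent single difference was a skipped exon, in 922 genes (19.01%), and 982 genes (20.2%) had more than 1 difference. In 674 genes 1 isoform was part of the other with a different start, in 625 the introns were the same and the ends differed, and in 536 the first exon was another one. Another 3′ splice site separated the pair in 484 genes (9.98%), and another 5′ splice site in 163 (3.36%). A single kept intron did so in 33 genes. The skipped exon had a median length of 109.5 bases, was a multiple of 3 bases long in 413 of 922 genes (44.8%), and was present in the leading form in 569.

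Of the most read genes that differ by an exon within the coding sequence, 3 are shown to make the difference visible, chosen after the values were seen. They were taken from pairs that passed limits for display, some of which are given below for 3′ splice sites. More read pairs may therefore be missing. Sequences are from GENCODE 29 transcripts of the same ID and exon lengths, 5′ to 3′ in the sense of the gene, and positions are hg19 positions of the deposited models. Capitals mark the exon that 1 of the pair lacks, and small letters the 12 bases that flank it in the spliced RNA.
OCIAD2, chr4:48901846-48901942, 97 bases: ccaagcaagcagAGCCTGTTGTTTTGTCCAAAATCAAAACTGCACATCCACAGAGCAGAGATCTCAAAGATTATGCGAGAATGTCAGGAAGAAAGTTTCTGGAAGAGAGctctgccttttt
NDUFA12, chr12:95387946-95388033, 88 bases: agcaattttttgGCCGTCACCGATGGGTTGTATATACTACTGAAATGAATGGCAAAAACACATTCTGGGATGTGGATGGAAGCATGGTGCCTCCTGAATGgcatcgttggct
ADRM1, chr20:60879517-60879633, 117 bases: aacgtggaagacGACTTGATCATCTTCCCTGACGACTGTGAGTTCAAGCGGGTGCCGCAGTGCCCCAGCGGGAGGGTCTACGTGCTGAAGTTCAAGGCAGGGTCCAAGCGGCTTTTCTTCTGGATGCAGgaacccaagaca
In OCIAD2 the form with the exon held 65.1%, 69.4% and 72.1% of reads and the form without it 7.998%, 9.15% and 7.22%. NDUFA12, an accessory subunit of respiratory complex I, had 86.0%, 85.9% and 87.5% with its exon and 8.89%, 8.92% and 5.93% without. In ADRM1, a ubiquitin receptor of the proteasome, the forms held 69.9%, 70.8% and 68.7% with the exon and 4.16%, 4.78% and 5.76% without. The exons of OCIAD2 and NDUFA12 are no multiple of 3 bases long, and that of ADRM1 is. UBE2B, with 504, 397 and 4891 reads, had a higher mean than ADRM1 (2503, 1568 and 1303 reads) through replicate 3 alone and is not shown.

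Alternative 3′ splice sites were mostly close together. The distance between the sites had a median of 5 bases, and in 313 of 484 genes (64.7%) it was 10 bases or less. A distance of exactly 3 bases was the most frequent, in 155 genes (32.0%), and 4 bases came next with 60 genes. The form that keeps the extra bases led in 350 of the 484 pairs, and in 115 of the 155 pairs at 3 bases. The second isoform was annotated in 61 of the 155 pairs at 3 bases, and in 8 of the 60 at 4 bases. The deposited counts do not show single reads, so the placing of such junctions could not be checked. Limits for display included a place within coding sequence and a GENCODE 29 transcript for the form with the extra bases. Pairs in RPL35 and CDK4 (means of 10261 and 4262 CPM) are not among those displayed. The pairs displayed are thus not the most read of all 484. Of the 8 most read pairs that passed the limits, the 6 with 6 bases or fewer between the sites are shown. They were chosen after the values were seen. Capitals mark the bases kept only when the upstream site is used, and the last of these bases stand directly before the downstream site.
KRT17, under the ID of JUP, chr17:39778004-39778006: aaccacgaggagGAGatgaacgccctg
RPL13A, chr19:49994297-49994302: ccctacgacaagAAAAAGcggatggtggtt
RPS6, chr9:19378510-19378512: ttgtaaaaaaagGAGagaaggatattc
FTL, chr19:49469538-49469540: caggacatcaagAAGccagctgaagat
RPL4, chr15:66792511-66792514: tcgagcaccacgCAAGaagatccatcgc
BCAP31, chrX:152967557-152967562: gcactaagcaaaAACTAGagaaagctgaaa
In all 6 the extra bases end in AG, the last bases of an intron at most splice sites, and so they do in 382 of the 384 pairs whose extra bases could be read from GENCODE 29. Most called 3′ splice sites follow an AG, so this count cannot show whether the junctions were placed correctly. FTL, the light chain of the iron store ferritin, had 67.7%, 69.7% and 74.5% of reads with the extra 3 bases and 23.6%, 23.5% and 17.9% without. KRT17 had 55.7%, 52.5% and 43.9% with and 15.2%, 13.6% and 6.33% without. In RPS6, a protein of the small ribosomal subunit, the forms held 22.2%, 24.7% and 41.4% with and 16.5%, 15.9% and 13.1% without, and in BCAP31, a protein of the endoplasmic reticulum, 35.4%, 38.0% and 54.8% with and 19.8%, 16.7% and 11.2% without. The form without the extra bases was thus lowest in replicate 3 in each of the 4 genes.

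U2AF1, which binds the AG at the 3′ splice site, had 839, 671 and 510 reads in these wild-type cells (444 ± 107 CPM). Its annotated leading isoform of 8 exons and 939 bases held 47.3%, 48.0% and 54.3% of reads, with 95% Wilson intervals of 44.0 to 50.7%, 44.2 to 51.8% and 49.97 to 58.6%. The next isoform was an unannotated one that differs by a 3′ splice site, with 14.9%, 15.8% and 9.41%. Of 24 genes of splice-site recognition 22 were kept, with SNRPB, a core protein of spliceosomal snRNPs, the most read (1517, 911 and 1048 reads). The median leading share of the group was 59.5 ± 4.32%, near that of all kept Ensembl genes. HNRNPC, of 40 isoforms, and HNRNPH1, at 25.6%, 26.6% and 23.8% on its leading form, were among the splicing regulators read most. In PKM, the pyruvate kinase gene, the annotated leading form of 11 exons held 34.02%, 28.5% and 23.9% of 2419, 1169 and 905 reads.

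The average read lay on an isoform of 5.75, 5.43 and 5.80 exons (5.66 ± 0.198). Isoforms of 4 to 6 exons took the most reads (38.3 ± 3.67%), followed by those of 7 to 10 exons (21.9 ± 1.23%), and those of 21 or more took 0.745 ± 0.282%. Single-exon isoforms took 11.8%, 12.2% and 17.2% of reads, but only 6.09%, 5.51% and 4.23% of those at Ensembl genes. The median spliced length per read was 1076, 969 and 1290 bases (1112 ± 163), and the 90th percentile was 2043, 1986 and 2484 bases. Replicate 3 was the library with the longest isoforms, and without it the mean of the medians was 1023 ± 76.4 bases. The leading isoform of a kept Ensembl gene had a median of 7 exons.

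**Figure D3:**
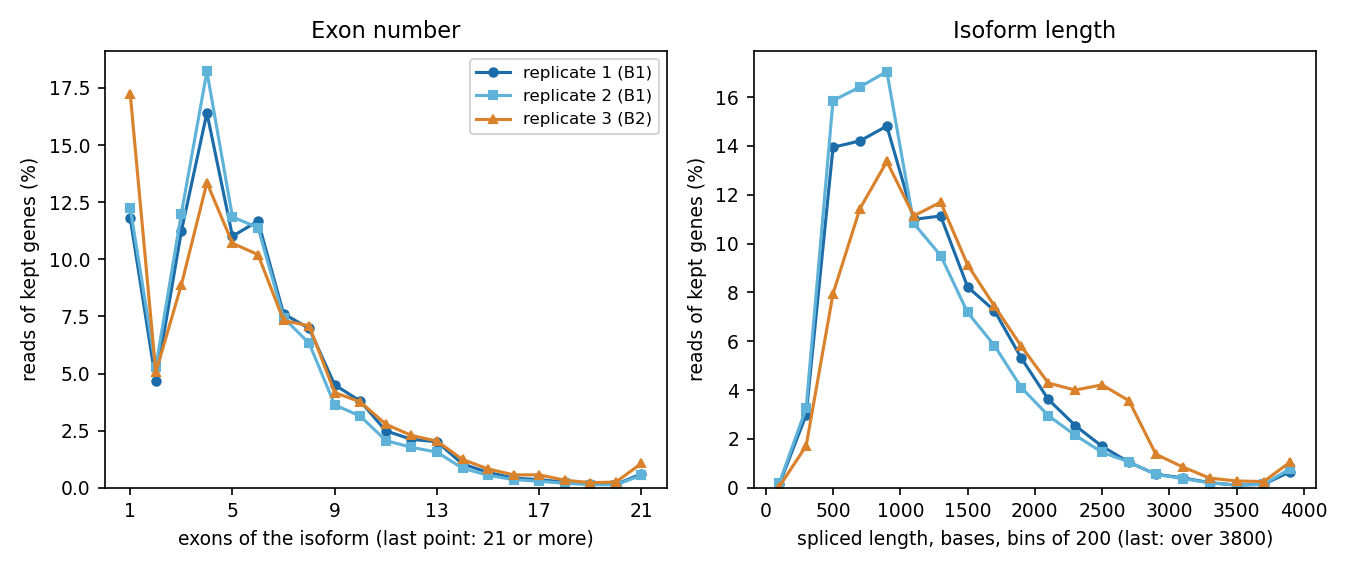
Percent of reads in kept genes by exon number of their isoform (left, last point 21 or more) and by spliced length (right, steps of 200 bases, last point over 3800), with a line for each library. Replicate 3 lies above the others at long lengths, with a median of 1290 bases against 1076 and 969.

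Annotated isoforms could be set against the GENCODE 29 transcript of the same ID for 12318 of 12902. The isoform model of a read reached a median of 93.7 ± 0.227% of the transcript's length. Its last exon ended within 50 bases of the length given in GENCODE in 57.0 ± 1.05% of reads, and its first exon in 50.04 ± 1.13%. A first exon over 50 bases shorter was found in 38.1 ± 1.30% of reads and a last exon over 50 bases shorter in 35.7 ± 0.422%. Among the most complex leading isoforms of well-read genes, FN1 had 46 exons, ITGB4, the integrin beta chain of hemidesmosomes, 39, and LAMA3, the alpha chain of laminin-332, 37. The leading isoform of ITGB4 is annotated and 5656 bases long, and held 19.2%, 12.01% and 12.9% of 475, 333 and 419 reads. CAST, the calpain inhibitor gene, had 29 exons, the RNA-binding HDLBP 28 and MED24, a subunit of the Mediator complex, 27. A long leading isoform was further seen in CD44, the hyaluronan receptor (17 exons and 5305 bases).

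Isoforms whose name carries no Ensembl transcript ID are called unannotated here, which is the deposited naming and not a search of current annotation. They took 39.1%, 39.0% and 46.2% of reads in kept IDs (41.4 ± 4.11%), and replicate 3 was above the other two. Within Ensembl genes they took 34.4%, 33.5% and 37.1%, and within spliced isoforms of Ensembl genes 30.1%, 29.6% and 34.3% (31.3 ± 2.57%). By number, 64.3 ± 0.867% of the isoforms with 3 or more reads were unannotated. No single-exon isoform in kept genes carried a transcript ID, so all such reads count as unannotated by naming, including those of MT-CO2 and HIST1H4C, which are intronless. In spliced isoforms of Ensembl genes, the unannotated share was 19.5 ± 5.42% at 2 to 3 exons, 28.0 ± 2.85% at 4 to 6, 37.7 ± 0.857% at 7 to 10, 47.2 ± 1.79% at 11 to 20 and 60.2 ± 2.65% at 21 or more, and this order held in each library.

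**Figure D4:**
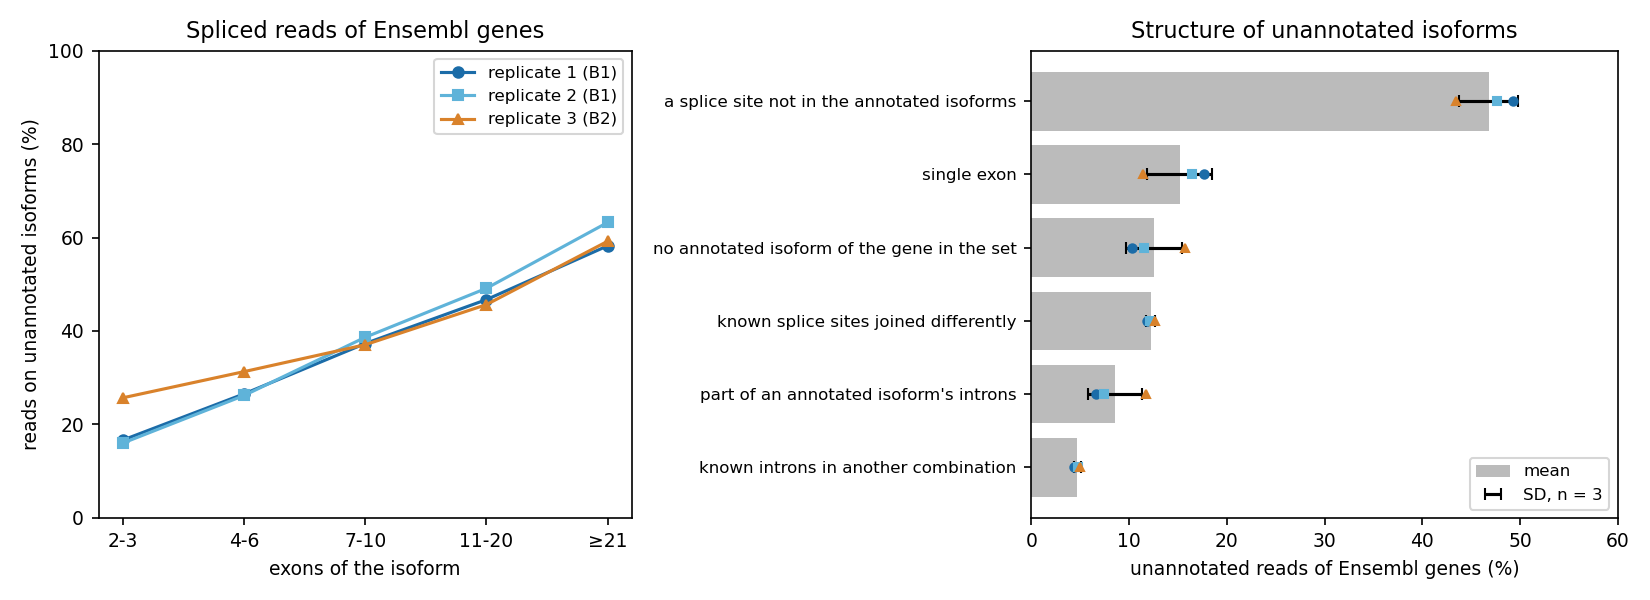
Left, percent of reads on unannotated isoforms of kept Ensembl genes by exon number, a marker for each library. Right, classes of unannotated reads as bars of the mean over 3 libraries, error bars for SD and points for libraries; the share climbs from 19.5% at 2 to 3 exons to 60.2% at 21 or more, and a splice site outside the annotated isoforms is the largest class at 46.8%.

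Unannotated reads of Ensembl genes lay most often, and in under 50% of cases in each library, on isoforms with a splice site that no annotated isoform of the gene has in this set (46.8 ± 2.996%). Single-exon isoforms held 15.2 ± 3.33%, genes with no annotated isoform in the set 12.5 ± 2.87%, known sites joined in another way 12.2 ± 0.434%, part of an annotated intron chain 8.57 ± 2.75% and known introns in another combination 4.72 ± 0.319%. Of the isoforms with a splice site outside the annotated ones, 66.0 ± 0.870% had 1 such site. In 26.3 ± 0.663% of these isoforms, holding 35.1 ± 3.64% of their reads, every such site was within 10 bases of an annotated one, and in 46.8 ± 1.59% a site was over 100 bases away.

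An unannotated isoform led, over the summed reads, in 1245 of 5393 Ensembl genes (23.1%). In 548 of these the set held no annotated isoform of the gene, in 340 the leading form had a splice site outside the annotated ones, and in 125 it was a single exon. In 1065 genes an unannotated form led in every library, and in 3850 an annotated one did. An unannotated form led in 38.1 ± 2.20% of the 1285 Ensembl genes with a mean of 10 to 30 reads and in 15.2 ± 0.448% of the 223 with 1000 or more. By mean CPM, the 8 most read genes led by an unannotated form in every library were MT-CO2, PFN1, an ID on chromosome X without a symbol, RPL18AP3, AXL, HIST1H4C, KRT7 and MT-ATP6, among those with 100 or more reads in each. In PFN1 no isoform carries a transcript ID, and a 4-exon form of 902 bases held 52.0%, 54.5% and 56.0%. The pseudogene RPL18AP3 had 6399, 5829 and 3497 reads. AXL, a receptor tyrosine kinase, had 2168, 1227 and 10936 reads, of which 99.5%, 99.4% and 99.9% lay on an unannotated form of 3 exons and 2484 bases at the end of the gene (chr19:41762384-41767671). KRT7, a simple-epithelium keratin, was led by an unannotated 10-exon form with 41.7%, 28.5% and 25.7% of reads. The ID on chromosome X, without a GENCODE 29 entry, at chrX:108297382-108297792, had 14700, 8119 and 436 reads on a single exon, the steepest difference between libraries among the 25 most read IDs. In CDK4, where the leading form was not the same in every library, the unannotated and the annotated form of 8 exons, which differ by a 3′ splice site, were not separated by counting error (95% Wilson intervals of the former 29.3 to 31.2%, 28.9 to 31.6% and 30.2 to 32.5%), at 30.3%, 30.2% and 31.4% against 30.1%, 30.3% and 31.1%.

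The 849 loci without an Ensembl gene ID held 7.13%, 8.33% and 14.5% of the reads of kept IDs. Of these loci, 745 had a single-exon leading isoform, and single-exon reads were 86.2%, 86.3% and 94.2% of theirs. The most read was the locus at chr1:91852822-91853108 with 17248, 13635 and 4784 reads over 3 isoforms, of which a 244-base form held 95.4%, 95.7% and 94.3%. A mitochondrial locus at chrM:8365-9990, of 1626 bases, had 9817, 5457 and 5918 reads. It overlaps the model of MT-ATP6 (chrM:8365-9207) and runs past its end. Loci at chr12:127650485-127650987 (7734, 8104 and 1440 reads) and chr6:116597744-116599097 (1751, 1188 and 7671) were lowest and highest in replicate 3, and their leading isoforms were 213 and 1354 bases long. The locus at chr7:33045704-33046540 had 2044, 3217 and 3008 reads, and that at chr19:13054904-13055301 had 1074, 965 and 5762.

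Protein-coding genes made up 5078 of the kept IDs and 88.1%, 86.6% and 81.5% of their reads, with 5.78 ± 0.318 isoforms a gene. The 121 pseudogenes held 1.96 ± 0.418% of reads, and 78 of them were led by a single exon. Long intergenic RNAs (55 genes) held 0.237 ± 0.0256% and antisense genes (36) 0.105 ± 0.0119%; no source used here says whether the counting used strand, and 33 kept IDs had isoforms on both strands. LRRC75A-AS1 was the most read of the noncoding genes. MIR205HG, the host gene of the epithelial microRNA miR-205, had 1300, 857 and 1070 reads over 45 isoforms, and its unannotated leading form of 5 exons held 9.92%, 11.2% and 12.2%. GAS5, a snoRNA host gene, had 700, 1059 and 845 reads and an annotated leading form of 12 exons with 34.1%, 40.1% and 41.4%. The other 3 of the 6 most read noncoding IDs, AP005263.1, AL137782.1 and AC016876.2, were led by transcripts that GENCODE 29 gives to the protein-coding genes NDUFV2, UCHL3 and EIF4A1. Internal exons of these leading forms also matched the ID named, so that their reads cannot be given to the noncoding gene alone.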

How the data were processed

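HBEC3kt poly(A) RNA was made into cDNA with Smart-Seq2 and sequenced with 1D nanopore chemistry on a MinION, per the labels' protocols. The authors deposited a raw read count per isoform and library, and exon models of the isoforms, whose name ties them to FLAIR. Positions are in hg19, per the submitters' processing notes. The aligner, its version, read filters and strand use were not given in the sources used here. Isoform counts were summed per gene ID in 3 wild-type libraries of 1720292, 1286512 and 1584167 reads. IDs with 10 or more reads in each were kept, and an isoform counted with 3 or more reads. No pair of libraries was a repeat of 1 library (chi-square per degree of freedom of gene counts 4.13, 22.0 and 17.8). Of 5393 kept Ensembl IDs, 5332 had a symbol in GENCODE 29, which also gave transcript sequences. Python 3.11.15, pandas 2.3.3, numpy 2.4.6, scipy 1.17.1 and matplotlib 3.10.9 were used, and scripts were tested on simulated data. No test between groups was run.

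Genes were named by rule: the 25 with the highest mean CPM, the 3 markers, 2 to 4 of each gene list with the highest mean CPM, and, among genes with 100 or more reads in every library, the extremes of isoform number, leading share, its range, exon number and length, with the 6 most read loci, the 6 most read noncoding genes and the 8 most read genes led by an unannotated isoform. Some genes that the rule names are not reported here. The members and lists were chosen with earlier results of these data known. Alternatives changed the minimum reads, the libraries used, the depth, the IDs counted, the isoform definition and the ranking scale. The check of gene IDs and the recount that followed from it were chosen after the data were seen.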

Additional observations from a re-analysis of the deposited data

How the results depend on the processing

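Of 115 recomputed values, 67 stayed within a set limit and 48 moved beyond it, and none has a test. The limit was the SD between libraries, or 1.5 times for the number of kept IDs and the 95% Wilson interval for the share of genes with the same leading isoform, which have no SD. Kept IDs were 8524 at 5 reads per library, 2561 at 50, and 5375 to 7045 under the others. Isoforms per gene were 4.06 at 5 reads, 8.73 at 50, 5.65 in Ensembl genes, 4.58 with isoforms of the same introns merged, 5.68 without single-exon isoforms, 6.24 counting isoforms from 1 read and 2.65 from 10, and 4.80 to 4.88 with a replicate left out. The median leading share was 70.9% at 5 reads, 57.6% at 50, 59.7% in Ensembl genes, 70.6% with same introns merged, 59.3% without single-exon isoforms, and 65.5% to 67.2% with a replicate left out. Genes at 90% or more were 33.5%, 15.98%, 17.2%, 30.04% and 16.4% under the same 5 settings, 24.1% with libraries thinned to the shallowest, and 27.1% to 28.2% with a replicate left out. Exons per read were 6.17 in Ensembl genes and 6.41 without single-exon isoforms, and the unannotated share of reads 35.0% and 32.1%. The unannotated share of isoforms was 66.9% at 50 reads, 62.9% in Ensembl genes, 67.3% with same introns merged, 63.0% without single-exon isoforms, 67.7% from 1 read and 53.8% from 10. Genes led by an unannotated isoform were 42.7% at 5 reads, 20.7% at 50, 32.6% thinned, 23.9% in Ensembl genes, 23.7% without single-exon isoforms, and 35.1% to 36.5% with a replicate left out. The same isoform led in every library in 85.9% at 50 reads, 79.3% in Ensembl genes, 84.4% with same introns merged, 79.1% without single-exon isoforms, and 86.6% to 89.1% with a replicate left out, where only 2 libraries need to share it. Other settings, among them isoforms moved to the gene they match, an alternative chosen after seeing the data, stayed within these limits. No paired analysis was possible because only the wild-type group was analysed. A gene with few reads has room for only few isoforms of 3 or more reads, which bounds the isoform numbers of genes near 10 reads. How far depth sets their leading shares was not tested, nor was the cause of other shifts.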
